A study of Mus musculus with 3 samples.

Results

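NIH3T3 cells, a mouse fibroblast line, were exposed for 24 h to either of 2 compounds that act on the retinoic acid receptor alpha (RARα), and the array of the cells given 20 µM AR7 was set directly against the array of the cells given 20 µM BMS614. The cells were wild type and confluent, both compounds were dissolved in DMSO, and dose and time were the same. The compound is the one difference that the labels give. The array of cells without compound (None) does not enter the comparison. Each compound has 1 array, so no difference below has a replicate check, no test was possible and no p-value is given; differences are written as AR7 minus BMS614 on the log2 scale, and fold values are ratios of normalised spot intensity. Each one-colour array carries 55681 probes that are not controls. The comparison rests on the 32819 probes (58.9%) that were well above background and free of outlier flags on both arrays, of which 18741 could be named, for 14530 of the 20660 genes that named probes cover. Another 1283 probes (2.30%) were well above background only on the AR7 array, 1602 (2.88%) only on the BMS614 array and 19977 (35.9%) on neither.

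RARα binds DNA together with a retinoid X receptor and recruits corepressors such as N-CoR1 when no agonist is bound. It also restrains chaperone-mediated autophagy (CMA), in which Hsc70 carries single cytosolic proteins to LAMP2A on the lysosomal membrane. AR7 is a RARα-binding compound made to relieve that restraint, and BMS614 is a selective RARα antagonist. NRF2, encoded by Nfe2l2, is the transcription factor that drives antioxidant and detoxifying enzymes through antioxidant response elements.

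The arrays were close to each other. Before normalization, 75% of spots had a median intensity under 780.5 with AR7 and under 909 with BMS614, and 61.2% and 61.8% of probes were well above background. Of 15 fibroblast markers, 13 were well above background on both arrays and 11 averaged 8 or more on the log2 scale over both arrays, whereas none of 10 epithelial markers reached that level. Among leukocyte markers 3 of 9 reached it, among neural markers 2 of 8, and among endothelial and muscle or adipocyte markers 1 of 8 each. Of the fibroblast markers at that level, 10 were lower and 1 was higher with AR7 (median −0.07). All 3 bright leukocyte markers were higher with AR7 (median 0.26). Itgam, an integrin chain of myeloid cells, differed by 0.33 on its brightest probe and by 0.00 and 0.02 on 2 dimmer ones, Cd3e, a T cell receptor subunit, by 0.26, and Csf1r, a growth factor receptor of macrophages, by 0.10 and 0.13 on its bright probes. Ptprc, the pan-leukocyte marker, was dim, at 4.96 and 4.82. The 2 bright neural markers were Map2, a microtubule protein of neurons (−0.33), and Syp, a synaptic vesicle protein (0.08). Whether these values bear on the gene groups below was not tested.

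As a measure of error, 278 of the probes well above background on both arrays occur 10 times on each. The SD of the difference between spots of the same probe fell with signal, from 0.402 below a mean log2 signal of 6 and 0.246 between 6 and 7 to 0.0854 between 8 and 10, 0.0535 between 10 and 12, 0.0406 between 12 and 14 and 0.0365 from 14 upwards. This SD, divided by the square root of the number of spots, stands after ± below. It covers the spots of these arrays and not the variation between cultures, labellings or hybridizations. Genes read by several probes give another measure, since the median gap between the differences of 2 probes for the same gene was 0.273 below a signal of 6 and 0.0646 from 14 upwards. Over 32 blocks of the array surface, the median difference ran from −0.027 to 0.026.

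In all, 194 of the 32819 probes (0.591%) differed at least 2-fold, 110 (0.335%) higher with AR7 and 84 (0.256%) higher with BMS614. Of these probes, 182 had a mean log2 signal under 8. The split of the 2-fold probes, 56.7% higher with AR7, was 63.0% when Agilent's processed signal was set to equal 75th percentiles, 100% of 15 probes after normexp background correction, 27.0% with the spike-in controls as the scale and 78.0% with the values of the deposited table. Probes whose log2 signal averaged 8 or more are called bright below. Of 18084 bright probes, 96 (0.531%) differed at least 1.5-fold, 63 (0.348%) higher with AR7 and 33 (0.182%) higher with BMS614. That split, 65.6% higher with AR7, was 19.9% with spike-in scaling and 51.6% with the deposited values. Each of the 10218 genes with a bright probe is represented by its brightest one. A log2 difference of 0.322, a ratio of 5 to 4, was used as the threshold for genes. Of the bright genes, 241 (2.36%) were past it, 125 (1.22%) higher with AR7 and 116 (1.14%) higher with BMS614, and the median absolute difference was 0.0752. Under spike-in scaling 941 did so, of which 3.08% were higher with AR7. The spike-in controls place the median of all probes at −0.16, and values under that scaling are otherwise given relative to it. At least 2 SD between repeated spots separated 3495 of the bright genes (34.2%), 17.3% higher with AR7 and 16.9% higher with BMS614, so that a difference past this measure was common.

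**Figure D1:**
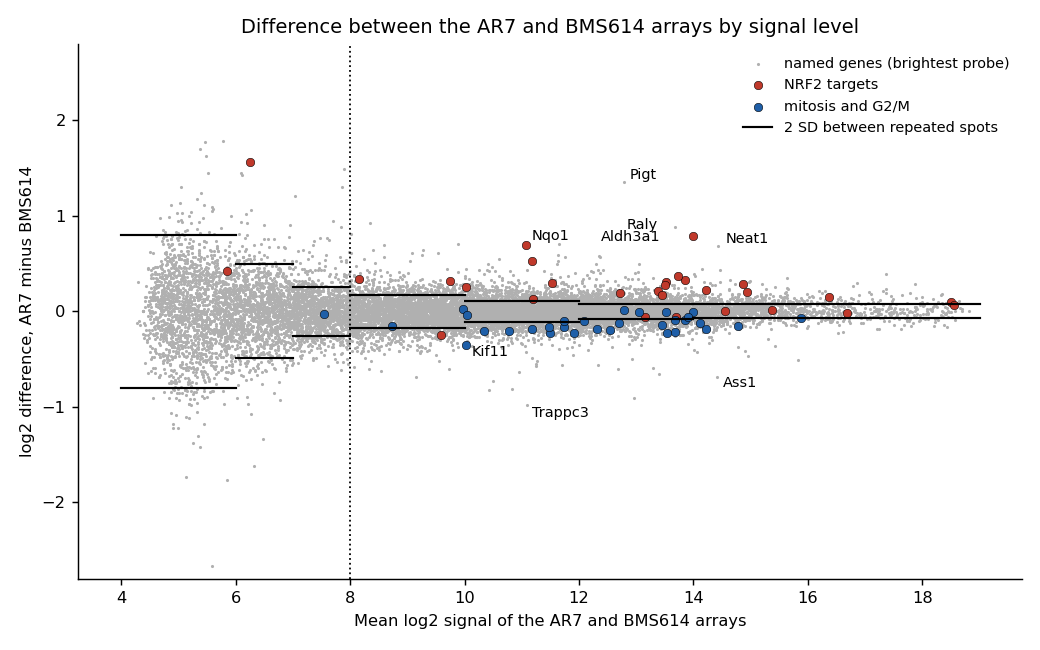
Log2 difference (AR7 minus BMS614, vertical axis) against the mean log2 signal of both arrays (horizontal axis) for the brightest probe of each of 14530 named genes, with black lines at 2 SD between repeated spots and a dotted line at a signal of 8. The scatter narrows as signal rises, most NRF2 targets (red) lie above 0 and most mitotic genes (blue) lie below it.

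All 12 bright probes (0.0664%) that differed at least 2-fold were higher with AR7. The genes named among them are Pigt and, by its dimmer probe, Aldh3a1. Pigt, a subunit of the transamidase that attaches GPI anchors to proteins, had a log2 signal of 13.47 with AR7 and 12.11 with BMS614 (2.56-fold, difference 1.36 ± 0.04), on its only probe. Another 7 of the 12 are named in the design only by a genomic interval (build mm9), and 3 by a transcript that matched no gene. The widest of these differences, 2.91, was that of the probe for the reverse strand of chr9:20313342-20323517, with 9.99 against 7.08. The probe for the reverse strand of chrX:18744367-18853992 followed, with 11.91 against 9.44. The others lie on the forward strand, at chr13:48620882-48643532 (1.99), chr11:95573399-95587949 (1.81), chr9:78107225-78118850 (1.59), chrX:50400250-50410825 (1.46) and chr15:73475785-73482471 (1.38). The genes at these intervals were not looked up here.

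The genes that stood furthest above BMS614 in AR7-treated cells included the enzyme genes Aldh3a1, Nqo1 and Aox1. Aldh3a1, an aldehyde dehydrogenase, had a signal of 14.38 with AR7 and 13.59 with BMS614 on its brightest probe (1.73-fold, 0.79 ± 0.04) and of 13.74 and 12.41 on the other (2.51-fold, 1.33 ± 0.04). Nqo1, a quinone reductase, stood at 11.42 and 10.72 (1.62-fold, 0.70 ± 0.05). Aox1, a molybdenum-dependent aldehyde oxidase, stood at 8.94 and 8.24 (1.62-fold, 0.70 ± 0.09). The RNAs and regulators in this group have other roles. Neat1, the long noncoding RNA on which paraspeckles are built, was at 14.78 and 14.10 (1.60-fold, 0.68 ± 0.04). Ikbkg encodes NEMO, the regulatory subunit of the IκB kinase, and was at 9.59 and 8.95 (1.56-fold, 0.64 ± 0.09). Raly, an RNA-binding protein of the hnRNP family, was at 14.12 and 13.24 (1.84-fold, 0.88 ± 0.04). The rest of the 12 genes at this end were Nrsn1 (8.80 against 7.88, 1.90-fold), 1700022A21Rik (8.43 against 7.62, 1.75-fold), Wfdc13 (12.005 against 11.30, 1.63-fold), Retreg3 (10.23 against 9.53, 1.63-fold) and Lrrc14b (8.73 against 8.08, 1.57-fold).

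At the other end stood the 12 genes furthest above AR7 in BMS614-treated cells. Trappc3, a subunit of the TRAPP tethering complexes of the early secretory pathway, had a signal of 10.59 with AR7 and 11.58 with BMS614 (1.98-fold, −0.98 ± 0.05). Ass1, argininosuccinate synthase, stood at 14.06 and 14.75 (1.61-fold, −0.69 ± 0.04), and its other probe at 12.68 and 13.45. Alg8, a glucosyltransferase that builds the lipid-linked precursor of N-glycans, was at 10.42 and 11.23 (1.76-fold). Metrn, a secreted protein known from glia and axons, was at 10.01 and 10.84 (1.77-fold). For Chmp4b, an ESCRT-III subunit, the brightest probe gave −0.90 (12.50 against 13.41) and the 2 other probes −0.05 and −0.19. Atrnl1 was alike in this respect, with −0.73 on its brightest probe and −0.04 on the other, so that these values belong to single probes. The remaining genes were Dleu2 (8.80 against 9.49, 1.61-fold), Dnajc7 (13.07 against 13.73, 1.58-fold), Rnf25 (10.64 against 11.27, 1.55-fold), Prm1 (8.23 against 8.85, 1.54-fold), Aqp3 (9.42 against 10.03, 1.52-fold) and Atic (12.37 against 12.98, 1.52-fold). Of the 24 genes named at both ends, 19 had a single probe matched by accession, Neat1 among them.

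Of the 2005 genes with 2 or more bright probes, 102 had at least 1 probe past 0.322, and in 10 of these all probes were past it in the same direction. Higher with AR7 were Aldh3a1 (0.79 and 1.33), Ikbkg (0.50 and 0.64), Tmem179 (0.35 and 0.39), Gstm1, a glutathione transferase (0.33 and 0.50), and Tubb2b, a beta-tubulin (0.33 and 0.42). Higher with BMS614 were Ass1 (−0.77 and −0.69), Gatd3a (−0.58 and −0.57), Prpf38b, a splicing factor (−0.52 and −0.39), Prmt1, the main protein arginine methyltransferase (−0.46 and −0.37), and Ptprg, a receptor tyrosine phosphatase (−0.40 and −0.35), whose dim probe gave 0.13 and whose mean over all 3 was −0.21. In 2 genes, probes past the threshold pointed in opposite directions. Neat1 is read by 6 bright probes, 5 of them named by the array design only, and its differences ran from 0.58 to 0.68. The single probe of Malat1, the neighbouring nuclear RNA, gave 0.31 (10.66 against 10.36). The other genes of the paraspeckle list, the proteins Nono, Sfpq and Pspc1 and the RNA Snhg1, differed by −0.15 to 0.01.

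**Figure D2:**
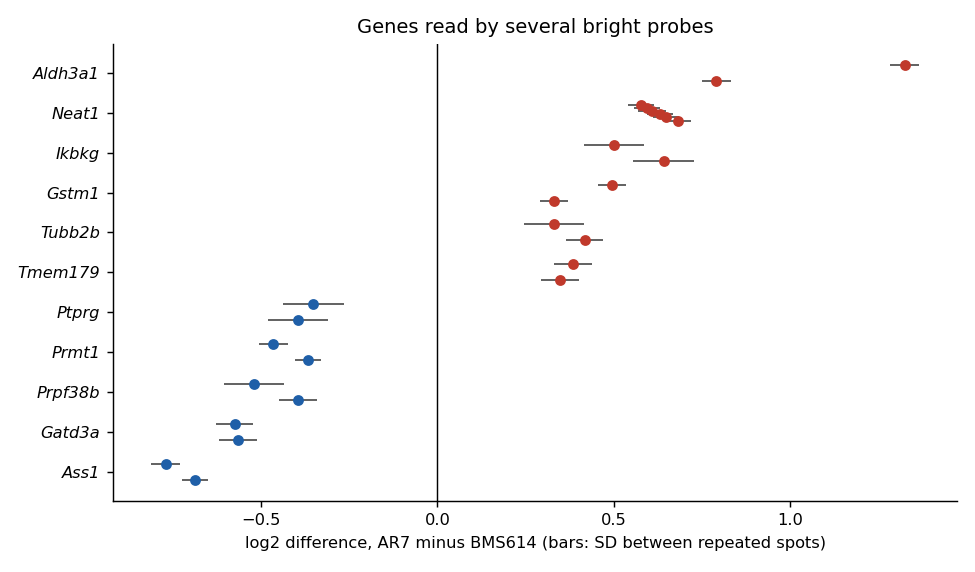
Log2 difference (AR7 minus BMS614, horizontal axis) of every bright probe for the 10 genes whose bright probes all passed 0.322 the same way and for the 6 probes of Neat1; bars are the SD between repeated spots. The probes of a gene lie on the same side of 0, and those of Aldh3a1 are the furthest from it and from each other.

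Dim probes gave larger differences with larger error. Among genes of any signal, the 5 furthest above BMS614 were Gm20556 (3.45-fold), Zmym2 (3.41-fold), Usp49 (3.26-fold), Asb5 (3.099-fold) and Gsta2 (2.95-fold), and the 5 furthest below it were H60c (6.37-fold), Vmn1r40 (3.40-fold), Slco1a4 (3.33-fold), Riiad1 (3.06-fold) and H2al1n (2.68-fold). Their mean log2 signals were under 7, where the SD between spots was 0.402 or 0.246. After normexp background correction the differences of these 10 genes shrank to between 0.50 and 0.98 in size. H60c, a ligand of the NKG2D receptor, had a signal of 4.25 with AR7 and 6.92 with BMS614. Gsta2, a glutathione transferase and NRF2 target, had 7.03 and 5.46 (1.56 ± 0.25). The widest difference of any named probe was on a dimmer probe of Ak4, a mitochondrial adenylate kinase, at 10.03 against 5.65 (20.8-fold, 4.38 ± 0.13), while the brightest Ak4 probe gave 0.13 (9.45 against 9.32). Ak4 was picked with its values in view and falls outside the rule for naming genes.

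Among 34 pathway lists, chosen with earlier results of these data known, the NRF2 target list had the highest median. Of its 30 genes on the array, 29 were well above background on both arrays and 27 were bright. Of these 27, 23 were higher with AR7 and 4 with BMS614, beside 49.9% and 49.8% of all bright genes, and 20 were higher by at least 2 SD between spots against 1 lower, beside 17.3% and 16.9%. The median was 0.21, beside 0.00 over all bright genes, and stayed between 0.20 and 0.22 under every other scaling and setting tried. Each scaling was first centred on its own median, so the spike-in offset of −0.16 does not enter this range. In the list 6 genes passed 0.322, all higher with AR7, beside 1.22% of all bright genes higher and 1.14% lower. These were Aldh3a1, Nqo1, Gsta4, Pgd, Osgin1 and Gstm1. Slc7a11 was not well above background on either array.

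Members of the list that build or use glutathione were measured as follows, with Gsta4 and Gstm1 past 0.322. Gclm, the modifier subunit of the enzyme that makes γ-glutamylcysteine, was at 10.16 and 9.90 (0.26 ± 0.05), and Gclc, its catalytic subunit, differed by 0.19. Among the glutathione transferases, Gsta4 was at 11.45 and 10.92 (0.53 ± 0.02), Gstm1 at 14.01 and 13.68 (0.33 ± 0.04) and Gstp1 differed by 0.28. Gsr, which regenerates glutathione, differed by 0.21. Others belong to the thioredoxin system, and none of these passed it. Srxn1, which restores oxidised peroxiredoxins, was at 13.64 and 13.36 (0.28 ± 0.04), Txnrd1, thioredoxin reductase, at 14.34 and 14.11 (0.22), and Txn1 and Prdx1 differed by 0.15 and 0.02. Among the genes of NADPH supply, Pgd stood at 13.91 and 13.55 (0.37 ± 0.04), Me1 differed by 0.17, and Tkt, Taldo1 and G6pdx differed by 0.00, −0.01 and −0.06. Hmox1, heme oxygenase, was at 13.68 and 13.37 (0.31 ± 0.04), and the ferritin chains Ftl1 and Fth1 differed by 0.10 and 0.06. Osgin1 was at 8.32 and 7.99 (0.34 ± 0.09) and Cbr3, a carbonyl reductase, at 9.90 and 9.58 (0.32 ± 0.09). Sqstm1, the autophagy receptor p62, differed by 0.30 and Ephx1, an epoxide hydrolase, by 0.21. The efflux pumps went opposite ways, with 0.13 for Abcc1 and −0.25 for Abcc4, the lowest value of the list.

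The transcript of NRF2 itself, Nfe2l2, stood at 12.75 and 12.72 (0.03 ± 0.04). Promoters of 23 of the 29 list members well above background were in the RefSeq table (build GRCm38.p6, 250 bases before to 50 after the start site). The letters TGACNNNGC, the core of the antioxidant response element, were found on either strand in 10 of the 23 (43.5%), beside 13.99% of the 27025 genes with a promoter in the table. The same letters were in 5 of 25 genes of the mitosis list (20.0%). A gene with several promoters counts if any of them holds the letters, as Pgd and Me1 do by 1 of 2 each and Txnrd1 by 1 of 3. Windows of Srxn1 (chr2:152105274-152105573, + strand) and Gclm (chr3:122245307-122245606, + strand) show the match, in capitals, in a gene of peroxiredoxin repair and a gene of glutathione synthesis. Sequences run 5′ to 3′ along the gene's strand, and the match lies on the opposite strand in both. Members were counted whatever their difference, so the shares with a match describe the list and not the compounds. A match describes the letters and is not evidence of binding.
Srxn1: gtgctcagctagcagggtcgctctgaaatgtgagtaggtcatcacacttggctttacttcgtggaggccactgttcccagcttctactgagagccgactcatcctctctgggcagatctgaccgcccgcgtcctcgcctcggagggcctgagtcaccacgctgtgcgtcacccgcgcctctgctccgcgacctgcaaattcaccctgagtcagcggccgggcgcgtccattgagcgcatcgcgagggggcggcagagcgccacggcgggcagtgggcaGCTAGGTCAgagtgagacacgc
Gclm: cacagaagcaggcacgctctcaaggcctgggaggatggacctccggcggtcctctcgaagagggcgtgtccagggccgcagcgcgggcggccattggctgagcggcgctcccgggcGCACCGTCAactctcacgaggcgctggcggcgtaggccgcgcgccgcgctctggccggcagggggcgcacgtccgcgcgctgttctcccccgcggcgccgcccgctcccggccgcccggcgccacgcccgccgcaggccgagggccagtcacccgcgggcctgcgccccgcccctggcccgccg

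AhR targets overlapped with this list. Of 5 bright members all were higher with AR7, beside 49.9% of all bright genes. With the deposited values 4 of 5 were higher, with a median of 0.0094. The threshold was passed by 2 members, both higher with AR7, beside 1.22% of all bright genes higher and 1.14% lower. Those 2 were Aldh3a1 and Nqo1, however, which both lists hold. Among the dim members, Ahrr, the repressor of the aryl hydrocarbon receptor, differed by −0.52 ± 0.25 and Ugt1a6a, a glucuronosyltransferase, by 0.50 ± 0.40. Cyp1b1 and Tiparp differed by 0.07 and 0.05, and Cyp1a1, the classical target of the aryl hydrocarbon receptor, was not well above background on either array.

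The mitosis and G2/M list had the lowest median of the 34 lists, which were chosen with earlier results known. RNA came from whole cultures, in which fewer cells in a phase and less RNA per cell cannot be told apart. Of its 30 bright genes, 28 were lower and 2 higher with AR7, and 20 were lower by at least 2 SD between spots against 0 higher, beside 16.9% and 17.3% of all bright genes. Its value was −0.15 and stayed between −0.16 and −0.13 under every other scaling and setting tried, with each scaling centred as above. Only Kif11, the kinesin that separates the spindle poles, passed the threshold, at 9.85 with AR7 and 10.20 with BMS614 (−0.35 ± 0.05). Ube2c, the E2 enzyme of the anaphase-promoting complex, was at 13.43 and 13.65 (−0.22 ± 0.04), and Plk1, a kinase of mitotic entry, at 14.12 and 14.31 (−0.19 ± 0.04). Differences of a like size were seen for the checkpoint kinase gene Bub1 (−0.23), the kinesin gene Kif20a (−0.22), Mki67 (−0.22), the kinetochore gene Nuf2 (−0.20) and the spindle gene Tpx2 (−0.19). Cdk1, the main mitotic kinase, differed by −0.01 and −0.04 on its bright probes and by −1.32 ± 0.40 on a dim one. Its cyclin gene Ccnb1 differed by 0.02, −0.12 and 0.02 on 3 probes, Ccnb2 by −0.16 ± 0.05 and Ccna2 by −0.09 ± 0.04. In the list of DNA replication and S phase genes, 12 of 30 were higher and 17 lower, 0 and 9 by at least 2 SD, with a median of −0.03. That median lay between −0.062 and −0.028 over the settings tried. None of the list passed the threshold, which 2.36% of all bright genes did.

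The letters TTTGAA are the cell cycle homology region through which genes of this phase are regulated. They were in 18 of 25 members with a promoter in the table (72.0%, of 31 members well above background). Beside this stood 20.2% of all genes with a promoter there and 6 of 23 NRF2 targets (26.1%). Here too members were counted whatever their difference, so the share describes the list and not the compounds. Kif11 (chr19:37376132-37376431, + strand), Plk1 (chr7:122159185-122159484, + strand) and Ube2c (chr2:164769679-164769978, + strand) are shown with the match in capitals, since their values are given above. The match lies on the gene's strand in Plk1 and on the opposite strand in Kif11 and Ube2c.
Kif11: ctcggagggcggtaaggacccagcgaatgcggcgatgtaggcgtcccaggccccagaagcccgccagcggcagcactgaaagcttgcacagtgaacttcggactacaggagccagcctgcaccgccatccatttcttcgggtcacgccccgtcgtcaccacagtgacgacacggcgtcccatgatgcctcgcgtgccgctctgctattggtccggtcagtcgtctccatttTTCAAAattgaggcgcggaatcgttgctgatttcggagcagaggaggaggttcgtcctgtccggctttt
Plk1: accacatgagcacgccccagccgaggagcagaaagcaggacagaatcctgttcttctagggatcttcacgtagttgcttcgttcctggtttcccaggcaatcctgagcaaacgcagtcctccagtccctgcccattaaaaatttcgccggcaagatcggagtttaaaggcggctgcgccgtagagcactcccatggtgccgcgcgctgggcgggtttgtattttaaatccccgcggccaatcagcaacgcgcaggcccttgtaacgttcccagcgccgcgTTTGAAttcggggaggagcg
Ube2c: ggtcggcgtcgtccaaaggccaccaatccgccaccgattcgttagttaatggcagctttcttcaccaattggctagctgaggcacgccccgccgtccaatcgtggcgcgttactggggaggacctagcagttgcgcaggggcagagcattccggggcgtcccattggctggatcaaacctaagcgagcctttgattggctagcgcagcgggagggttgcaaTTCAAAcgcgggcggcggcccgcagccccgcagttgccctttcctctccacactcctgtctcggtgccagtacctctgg

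**Figure D3:**
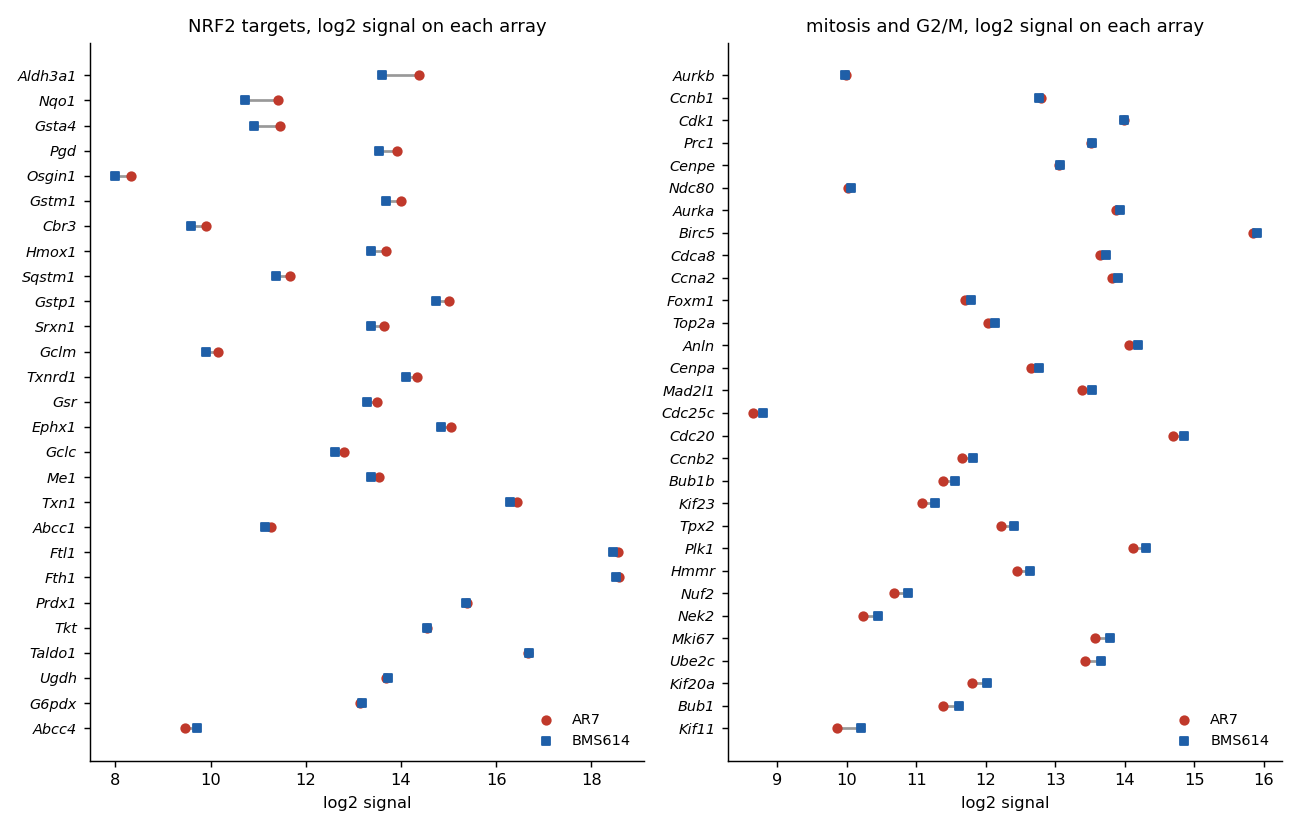
Log2 signal on the AR7 array (red circles) and the BMS614 array (blue squares) for the bright genes of the NRF2 target list (left) and the mitosis and G2/M list (right), ordered by difference. AR7 lies to the right of BMS614 for 23 of 27 NRF2 targets and to the left for 28 of 30 mitotic genes.

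The receptors themselves were at like levels with both compounds. Rara, the target of the compounds, had a signal of 13.42 with AR7 and 13.41 with BMS614 (0.00 ± 0.04) on its brightest probe, while its other probe gave 11.07 and 10.69 (0.38 ± 0.05). Rarg differed by −0.03, Rxrb by 0.04 and Rxrg by 0.19 (13.55 against 13.36), and Rarb was not well above background on either array. Rxra was dim and differed by −0.04. The corepressor gene Ncor1 was at 10.10 and 10.06 (0.04 ± 0.05), with −0.15 and −0.10 on its dimmer probes. Its partners Hdac3, Tbl1x, Tbl1xr1 and Gps2 differed by 0.00, 0.13, 0.06 and −0.08. The coactivators Ncoa1, Ncoa2 and Ncoa3 and the corepressor Nrip1 differed by −0.06 to 0.07 on their brightest probes. Dimmer probes of Ncoa1 gave −0.08 and −0.27. None of the 14 bright receptors and cofactors passed the threshold on its brightest probe, beside 2.36% of all bright genes. Their median, 0.02, changed sign under 3 of the alternatives.

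Genes known to respond to retinoic acid were split, with 9 of 15 bright members higher with AR7, 6 lower and a median of 0.04. Of all bright genes 49.9% were higher and 49.8% lower. Hic1, a transcriptional repressor, was the member past the threshold (2.36% of all bright genes), at 9.59 and 10.00 (−0.41 ± 0.09). Rdh10, which oxidises retinol, followed with −0.29. The retinoic acid hydroxylase gene Cyp26b1 differed by −0.03 and Dhrs3, which reduces retinal, by 0.00. The retinoic acid carriers Crabp1 and Crabp2 differed by −0.06 and 0.13, and Stra6, the receptor for retinol-binding protein, by 0.16. Among the homeobox genes, Hoxa5, Meis1 and Meis2 differed by −0.11, 0.12 and 0.04, and Tgm2, a transglutaminase, differed by 0.04. Cdx1, Stra8 and Rarres2 were dim, with differences within 1 SD between spots. Cyp26a1 was well above background on 1 array, and Cyp26c1, Lrat, Hoxb1, Rarres1 and Foxa1 on neither.

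The transcripts of the CMA machinery were near equal, as were most bright genes, whose median absolute difference was 0.0752. Of 19 bright genes of the CMA network 11 were higher and 8 lower with AR7, with a median of 0.03. Of all bright genes 49.9% were higher and 49.8% lower. Higher by at least 2 SD between spots was 1 gene and lower were 3, beside 17.3% and 16.9% of all bright genes. Lamp2, whose product includes the CMA receptor, was at 13.47 and 13.40 (0.07 ± 0.04) on its brightest probe and at 10.68 and 10.73 on the other, and these values do not separate its splice forms. The chaperone genes Hspa8, Hsp90aa1, Hsp90ab1 and Dnajb1 differed by 0.03, 0.04, −0.01 and −0.08. The regulators at the lysosomal membrane, Akt1, Akt2, Rac1, Mtor, Phlpp1 and Rictor, differed by −0.02, 0.04, −0.08, −0.15, −0.19 and −0.21, with Phlpp1 dim. Ctsa, the protease that cleaves LAMP2A, differed by 0.06, the recycling genes Rab11a and Rab11b by 0.04 and 0.03, and Psme1 and Eef1a1 by 0.00 each. Nfatc1, a transcription factor, was the gene past the threshold (2.36% of all bright genes), at 8.55 and 8.22 (0.33 ± 0.09). Its other probe gave −0.06, and the mean over both was 0.13. Gfap was not well above background on either array.

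**Figure D4:**
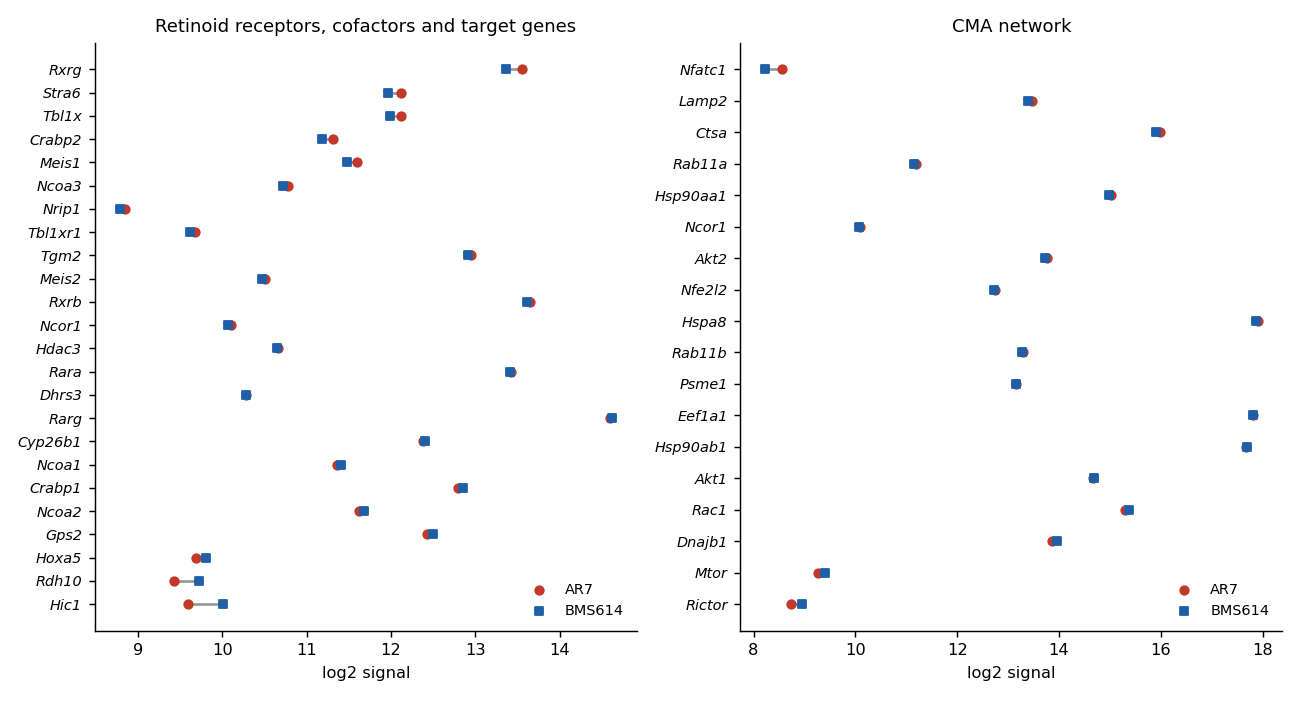
Log2 signal on the AR7 array (red circles) and the BMS614 array (blue squares) for bright retinoid receptors, cofactors and retinoic acid responsive genes (left) and for bright genes of the CMA network (right), as far as they are reported by name, ordered by difference. Most pairs of symbols overlap, and Hic1 and Nfatc1 are the widest pairs of their panels.

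Degradative and stress pathways differed in small steps. Beside the counts here and below, 49.9% of all bright genes were higher with AR7, 49.8% lower and 2.36% past the threshold. Of 36 bright lysosomal genes 24 were higher with AR7 and 12 lower, 17 of them higher and 4 lower by at least 2 SD between spots (17.3% and 16.9% of all bright genes), with a median of 0.08 and none past the threshold. The largest was 0.24 for Idua, a lysosomal iduronidase (14.35 against 14.11), and the lowest −0.22 for Ppt1, a palmitoyl thioesterase (8.92 against 9.14). Macroautophagy genes had a median of 0.05, which was −0.0019 in the deposited table, and Atg16l1, needed to lipidate LC3, passed the threshold (10.18 against 9.83, 0.35 ± 0.05). Subunits of the vacuolar ATPase had a median of −0.02.

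Genes of the endoplasmic reticulum chaperones and the unfolded protein response were lower with AR7 in 18 of 21 cases, with a median of −0.08 and 12 lower against 1 higher by at least 2 SD (16.9% and 17.3% of all bright genes). Edem1, which directs misfolded glycoproteins to degradation, was at 11.05 and 11.34 (−0.29 ± 0.05). Calr, the chaperone calreticulin, was at 14.18 and 14.45 (−0.27 ± 0.04), and Dnajb9 differed by −0.24. Pdia4, a disulfide isomerase, went the other way, at 11.05 and 10.78. Ddit4, the stress-induced inhibitor of mTORC1 that the ATF4 and HIF lists share, was at 12.99 and 13.59 (−0.59 ± 0.04), the lowest value of both lists. The ATF4 list had a median of 0.01, which changed sign under 2 alternatives.

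Genes of metabolism divided. Glycolytic genes and HIF targets had a median of 0.09, with 16 of 25 higher with AR7. By at least 2 SD 11 were higher and 2 lower, beside 17.3% and 16.9% of all bright genes. The list was led by Pfkl, a phosphofructokinase (11.19 against 10.89, 0.30 ± 0.05), Car9 (8.53 against 8.25) and Bnip3 (13.79 against 13.51). Sterol synthesis and LDL uptake genes had a median of −0.05, with 15 of 23 lower, and 10 lower against 2 higher by at least 2 SD. Srebf2, which encodes their regulator SREBP2, was at 9.97 and 10.18. Fatty acid synthesis, respiratory chain, ribosomal protein and proteasome genes had medians of −0.02, −0.01, −0.02 and −0.01, and the ribosomal median changed sign under 4 alternatives. Psme4, a proteasome activator, passed the threshold (−0.40).

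Among genes of the fibroblast's surroundings, matrix glycoproteins, proteases and inhibitors had a median of −0.08, with 13 of 21 lower with AR7. By at least 2 SD 10 were lower and 1 higher, beside 16.9% and 17.3% of all bright genes. Plat, tissue plasminogen activator, was at 8.995 and 9.434 (−0.44 ± 0.09) and Timp3, a metalloproteinase inhibitor, at 12.70 and 13.05 (−0.34 ± 0.04). Collagen chains and TGF-β targets had medians of −0.07 each. Of 21 bright interferon-stimulated and antigen processing genes 15 were higher and 6 lower with AR7, 9 against 0 by at least 2 SD (17.3% and 16.9% of all bright genes), with a median of 0.07. Among chemokines and cytokines 11 of 14 were higher with AR7, and Cxcl5, a neutrophil chemokine, passed the threshold (0.36). Of the immediate early genes, Ier3 passed it (12.04 against 11.47, 0.57 ± 0.05), and of the cyclin D and Rb list, Rbl1, which encodes p107 (−0.33). The lists of heat shock chaperones, p53 targets, SRF targets, clock genes, drug efflux transporters, LXR and PPAR targets, metal handling genes and SR splicing factors held no gene past the threshold, with medians from −0.05 to 0.05.

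**Figure D5:**
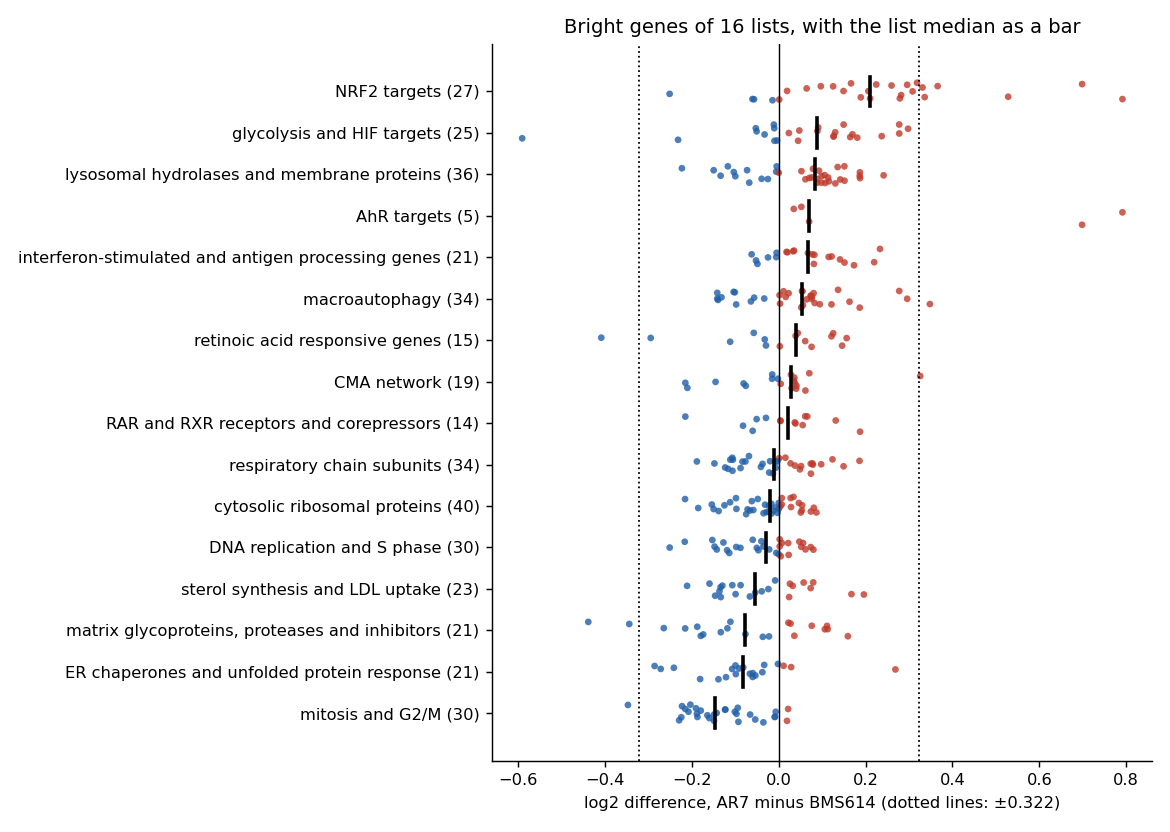
Log2 difference (AR7 minus BMS614, horizontal axis) of each bright gene of 16 lists (red higher with AR7, blue higher with BMS614), with the number of genes in brackets, the list median as a black bar and dotted lines at ±0.322. NRF2 targets have the highest median (0.21) and mitotic genes the lowest (−0.15), and most genes of every list lie inside the dotted lines.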

How the data were processed

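RNA of NIH3T3 cells was hybridized to one-colour Agilent mouse arrays, 1 per compound, and samples were grouped by the treatment in their labels. The files the authors deposited hold spot intensity as read by Feature Extraction 10.7.3.1, not normalized between arrays. They also hold a table of processed values, on a linear scale, which rise in proportion to each array's intensity after background subtraction. That table was an alternative here, floored at 16. The submitters' processing notes name oligo and RMA.

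From the median spot intensity, the RMA convolution background, quantile normalization over the 2 arrays, log2 and the mean over unflagged spots were computed here (R 4.3.3, limma 3.58.1, Python 3.11.15, numpy 2.4.6, pandas 2.3.3, matplotlib 3.10.9). Only the counting of differing probes and the choice of the brightest probe were tested on simulated data, not background correction or normalization. A probe was well above background where over 50% of its unflagged spots were. RefSeq accessions named 27235 of 55681 probes, for 20660 genes (names from GRCm38.p6), and a gene is represented by its brightest probe.

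The members, the 34 pathway lists and 6 marker lists, and the thresholds were chosen with earlier results of these data known, and the count past 2 SD between spots was added last. The genes named were the 12 bright and 5 of any signal with the largest difference in each direction, the CMA, receptor and retinoid lists, members of other lists past a log2 difference of 0.322 or leading a list described, up to 10 genes with agreeing probes, and 5 bounds in each direction. The number of arrays limits the precision. Alternatives were other scalings, backgrounds, thresholds and signal minimums, spike-in scaling, normalization with the None array and the mean over probes of a gene. A few list genes are left unnamed here but stay in the counts and medians.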

Additional observations from a re-analysis of the deposited data

Results flagged for a closer look

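Some probes were well above background with 1 compound and not with the other, and so lie outside the probes compared. Each has a bound in place of a fold, the signal on its bright array over either its own signal on the dim array or that array's detection limit (the dimmest signal still called well above background), whichever is higher. Bounds of at least 2-fold were found for 186 of 1282 such probes with AR7, 74 of them named, and for 237 of 1601 with BMS614, 81 of them named. The largest of the named ones with AR7 were Trpm3, at least 11.4-fold higher than with BMS614, Elavl3, at least 10.25-fold, Ankrd33b, at least 8.46-fold, Olfr1123, at least 7.72-fold, and Rgs13, at least 6.52-fold. Those with BMS614 were Speer4b, at least 11.66-fold higher than with AR7, Ntf3, at least 8.41-fold, Olfr1036, at least 8.24-fold, Fam240b, at least 8.17-fold, and Hoxc13, at least 7.23-fold. These 10 are listed because their signal lies outside the main measurement and above that of the untreated cells, in which none of them was well above background. Their log2 signals on the bright array were 6.42 to 7.29. Their mean over both arrays was under 6, where the SD between repeated spots was 0.402, and each rests on a single array. Another probe of Olfr1036 was well above background on both arrays and differed by −0.38 (5.97 with AR7 against 6.35 with BMS614). Trpm3 encodes an ion channel, Elavl3 a neuronal RNA-binding protein and Ntf3 a neurotrophin.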

How the results depend on the processing

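No paired analysis was possible because each group has 1 array, and no replicate could be left out for the same reason. The scanner files used here hold no mean spot intensity, so RMA on the mean was not run and normexp used the median. No probe was saturated, so leaving out saturated probes changed nothing. The count of probes 2-fold apart was 194, and it was 92 with Agilent's processed signal at equal 75th percentiles, 15 after normexp, 50 in the deposited table and 34 at 3-fold, and 1329 at 1.5-fold, 617 with bounds and 850 without a filter on dim probes. Of bright probes 1.5-fold apart there were 96, and 609 at a log2 difference of 0.322, 12 at 2-fold and 155 from a mean log2 signal of 7. Of bright genes 0.322 apart there were 241, and 941 under spike-in scaling, 31 at 1.5-fold and 157 from a signal of 9. For lists and single genes each scaling was first centred on its own median, so the spike-in offset of −0.16 could not turn a sign. The medians of 24 of 34 lists kept their sign under every alternative run. That of the macroautophagy genes turned to −0.0019 in the deposited table. AhR targets moved to 0.0094 in the deposited table and to 0.1167 as the mean over probes, fatty acid synthesis to −0.0683 and the cyclin D list to −0.033 in the deposited table. Ribosomal proteins moved to 0.0235 on the processed signal and to 0.0432 under RMA with 75th percentile or spike-in scaling, and metallothioneins and metal handling to 0.1182, 0.1057 and 0.1057, and to 0.0961 in the deposited table. The causes were not tested. Of the values of single genes under alternatives, 804 moved by less than the SD between spots, 116 by more, and none of those called turned its sign. Genes past 0.322 that moved by over 1.5 times are the 10 dim genes, and, as the mean over probes, Chmp4b (−0.38), Atrnl1 (−0.38), Ptprg (−0.21) and Nfatc1 (0.13). Signal over background limits the dim probes most.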

Other observations

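The array of cells without compound gives a further level for the genes named, after normalization of the 3 arrays together, on which the AR7 and BMS614 signals are close to those above. For some genes the BMS614 array was the nearer to None. Aldh3a1 was at 14.29 with AR7, 13.50 with BMS614 and 13.51 without compound, Gstm1 at 13.92, 13.59 and 13.55, Ikbkg at 9.49, 8.85 and 8.90, and Ier3 at 11.94, 11.37 and 11.47. Nqo1, at 11.32, 10.62 and 10.42, and Gsta4, at 11.35, 10.82 and 10.72, were lowest without compound.

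For others the AR7 array was the nearer. Ass1 was at 13.97 with AR7, 14.66 with BMS614 and 14.08 without compound, Ddit4 at 12.90, 13.49 and 12.96, Hic1 at 9.49, 9.90 and 9.53, and Neat1 at 14.69, 14.002 and 14.90. Pigt, at 13.37, 12.01 and 12.56, and Trappc3, at 10.49, 11.48 and 10.91, lay on opposite sides of the untreated level with the compounds. Each value is that of 1 array and was not tested.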
